A study of Mus musculus and Homo sapiens with 22 samples.

Results

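The endoplasmic reticulum (ER) chaperone and unfolded protein response (UPR) genes are 32 mouse genes named by function and followed across 6 RNA-seq files of N2A cells, a mouse neuroblastoma line. They were taken from a list of symbols, and all 32 were found among the 22667 genes of the files. They comprise 4 sensors and transcription factors, 12 chaperones and cochaperones, 4 disulfide isomerases, 9 genes of ER-associated degradation and 3 genes of the translocon. The study used RNA-seq and crosslinking libraries to ask how 3 RNA-binding proteins, nSR100, Ptbp1 and U2af65, act in alternative splicing. The values described here are reads per gene and hold no information on exon inclusion.

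N2A cells were transduced with lentiviruses that express a hairpin against GFP (shGFP) or against the 3′ untranslated region of nSR100 (shnSR100), and stable populations were kept under 2 ug/mL puromycin. Each of these groups had 1 file, which pooled 2 sequencing runs of different read lengths. Other N2A cells were transfected with a non-targeting siRNA pool (control libraries a and b), with a pool against U2af65 (siU2af65, labelled a) or with a pool against Ptbp1 (siPtbp1, labelled b), and were harvested at 48 hours. Every group had received a hairpin or an siRNA pool. The Srrm4 gene encodes nSR100, a splicing activator of neurons. Ptbp1 binds pyrimidine-rich RNA and holds back exons used in neurons. U2af65 (U2af2 gene) is a general splicing factor that helps to define 3′ splice sites.

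The ER folds secreted and membrane proteins. When unfolded proteins build up there, 3 membrane sensors respond: ATF6 (Atf6) is cut to release a transcription factor, IRE1 (Ern1) splices the Xbp1 mRNA so that it encodes an active factor, and PERK (Eif2ak3) phosphorylates the initiation factor eIF2α and so favours translation of ATF4. ATF6 and spliced XBP1 act on the ER stress element (ERSE) and raise transcription of chaperones, disulfide isomerases and the machinery that sends misfolded proteins to the proteasome. Gene counts do not separate spliced from unspliced Xbp1, cut from uncut ATF6, or active from inactive kinases.

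RefSeq promoter windows of GRCm38.p6, from 250 bases before to 50 bases after each gene's start, were matched by symbol to 25 of the 32 members. The ERSE, read as CCAAT, 9 bases of any kind and CCACG on either strand, was found in 9 of these 25 (36%), against 37 of the 27025 genes with a window (0.137%). Those 9 members were Hspa5, Hsp90b1, Calr, Canx, Dnajc3, Creld2, Pdia6, Syvn1 and Derl3. The related ERSE-II, read as ATTGG, 1 base of any kind and CCACG, was found in Herpud1 and Dnajb11, 2 of 25 members (8%) against 0.0444% of genes. No member window held TGACGTGG, an ATF6 and XBP1 binding core, which 0.714% of genes held. CCAAT alone stood in 21 of the 25 member windows and in 41.1% of genes, and CCACG alone in 21 of 25 and in 35.5%. These motifs overlap by construction, since each ERSE holds one CCAAT and one CCACG. The members were named as genes of the response that acts on this element, so their shares are a description and no test of enrichment. The elements of 8 of these genes are shown because they are shared by chaperones, an isomerase and a degradation gene whose differences are set side by side below. Each is printed 5′ to 3′ in the direction that reads the motif, with 5 bases on either side and the fixed bases in capitals.
Hspa5 (chr2:34772020-34772048, plus strand): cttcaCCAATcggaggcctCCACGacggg
Hsp90b1, nearer the start (chr10:86705528-86705556, plus strand): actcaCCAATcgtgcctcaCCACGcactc
Hsp90b1, farther from the start (chr10:86705633-86705661, minus strand): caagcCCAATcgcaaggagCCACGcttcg
Canx (chr11:50325795-50325823, minus strand): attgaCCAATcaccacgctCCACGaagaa
Dnajc3 (chr14:118937822-118937850, plus strand): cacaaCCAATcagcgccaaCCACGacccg
Creld2 (chr15:88819515-88819543, minus strand): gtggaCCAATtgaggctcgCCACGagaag
Pdia6 (chr12:17266486-17266514, plus strand): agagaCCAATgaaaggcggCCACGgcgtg
Syvn1 (chr19:6046527-6046555, plus strand): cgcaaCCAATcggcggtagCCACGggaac
Dnajb11, ERSE-II (chr16:22857847-22857867, plus strand): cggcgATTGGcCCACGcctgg

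**Figure D1:**
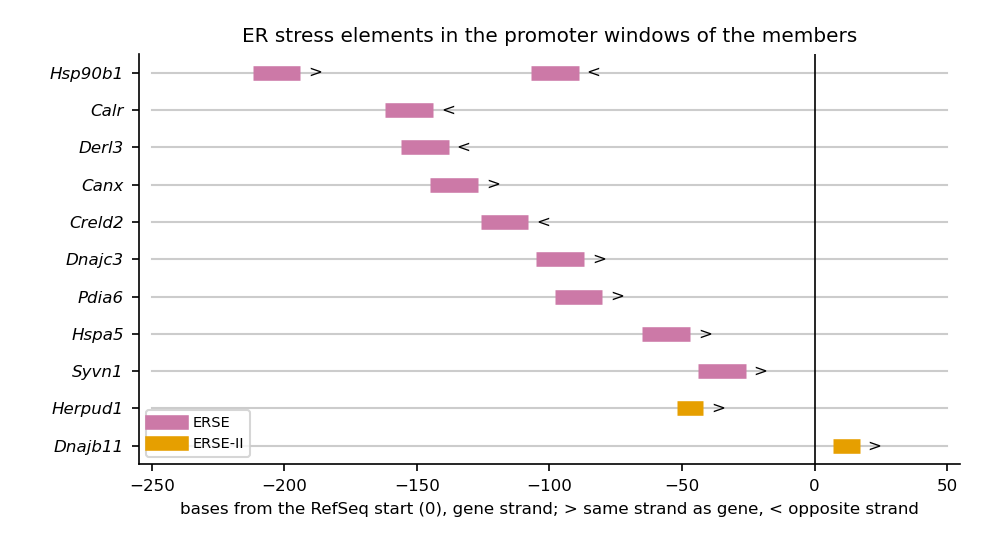
Position of each ERSE (pink) and ERSE-II (orange) in the promoter windows of the 11 members that hold one, in bases from the RefSeq start on the gene's strand, with arrowheads for the strand of the motif relative to the gene. Every ERSE lies before the start, from 212 to 44 bases upstream at its first base, and Hsp90b1 holds 2.

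Reads in genes ran from 60220620 (shGFP) to 77138004 (control b) per file. The targeted genes were low in their knockdowns: Srrm4 stood at 11.6 RPKM in shGFP and 2.50 in shnSR100, Ptbp1 fell by 4.18 and U2af2 by 2.67 on the log2 scale (edgeR adjusted p = 0.00242 and 0.00468). Of 13 neuroblastoma markers, noradrenergic genes and general neuronal ones such as Tubb3 and Stmn2, 12 reached 1 RPKM. Their summed level was 772 to 1130 RPKM per file and does not separate these kinds. Summed glial markers (8 genes) ran from 2.53 to 5.20 RPKM, immune markers (8) from 0.800 to 4.90, fibroblast markers (7) from 1.08 to 16.4, and endothelial and epithelial markers (8) from 5.55 to 10.3. The glial, immune, and endothelial and epithelial sums were highest in siU2af65 and the fibroblast sum in shnSR100; their part in the results was not tested. Whether the 2 control libraries came from separate cultures is not stated in the labels, so a p-value here covers the spread of these libraries, perhaps a technical one.

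RPKM is a read count divided by gene length and by the library total, and it was used to compare levels between genes. The members spanned a wide range of levels. The abundant ones were Hspa5 (BiP, the Hsp70 of the ER), Hsp90b1 (GRP94, the Hsp90 of the ER) and Calr (calreticulin, a lectin chaperone), with means over the 6 files of 551, 501 and 485 RPKM. Canx (calnexin, the membrane-bound lectin chaperone) followed at 280 RPKM, P4hb (protein disulfide isomerase) at 249, Pdia3 at 227 and Pdia6 at 208. The sensors were far lower, at 15.7 RPKM for Eif2ak3, 19.7 for Ern1 and 21.3 for Atf6, and Xbp1 stood at 44.1. Derl3, a derlin of the degradation pathway, stood at 0.110 to 0.360 RPKM (9 to 34 reads per file) and did not pass the filter of a mean of 1 RPKM, so 31 members were tested.

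Of all reads in genes, the 32 members took 0.807% in shGFP, 0.932% in shnSR100, 0.962% and 1.09% in controls a and b, 0.759% in siU2af65 and 1.25% in siPtbp1. The siU2af65 library was thus the lowest and siPtbp1 the highest. Hspa5 alone took 0.248% of the reads in siPtbp1, against 0.132% and 0.163% in the controls and 0.105% in siU2af65. Of the 31 members above the filter, 14 were lowest in siU2af65 and 14 were highest in siPtbp1. How often all genes had their extremes in these libraries was not counted.

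**Figure D2:**
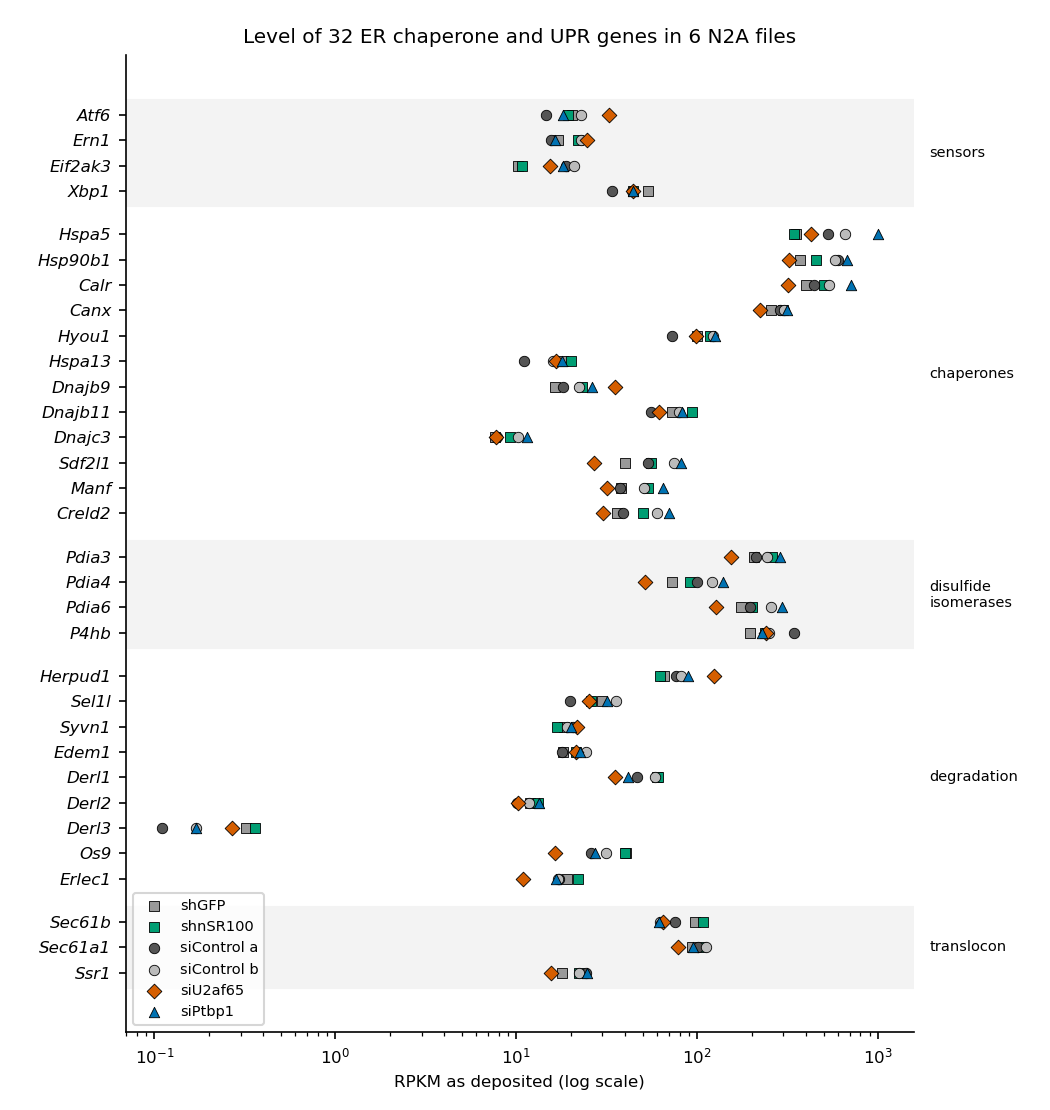
RPKM of the 32 members (log axis) in each of the 6 files, by role, with squares for the hairpin files, circles for the control siRNA libraries, diamonds for siU2af65 and triangles for siPtbp1. The diamond is the lowest point for 6 of 12 chaperones and 3 of 4 disulfide isomerases, and the triangle the highest for 9 and 3. For Atf6, Ern1, Dnajb9, Herpud1 and Syvn1 the diamond is the highest. These counts were not made over all genes.

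After U2af65 knockdown, 3 members fell and none rose. The 3 were Sdf2l1, a cofactor of BiP, Pdia4 (ERp72), a disulfide isomerase, and Os9, a lectin that delivers misfolded glycoproteins to degradation. This is 3 of 31 tested members (edgeR, adjusted p under 0.05). Of all 11237 tested genes, 3.42% were called lower and 1.82% higher. Without adjustment, edgeR gave 12 members lower and 3 higher at p under 0.05, where 1464 of the 11237 genes were lower and 1181 higher. The median log2 difference of the members was -0.47, beside -0.004 for all tested genes, and 24 of 31 were negative against 5662 of 11237 genes. On TMM-scaled counts, 20 members lay below both controls, where 39.5% of all genes did, and 5 lay above both, where 40.6% did.

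Sdf2l1 stood at 53.8 and 74.5 RPKM in controls a and b (64.1 ± 14.6, SD, n = 2), 27.0 in siU2af65 and 81.8 in siPtbp1. The siU2af65 value was the lowest of the 6 files, with 40.0 RPKM in shGFP as the next. Its log2 difference was -1.34, or 0.395 of the controls (SE 0.25, edgeR adjusted p = 0.0216). Pdia4 stood at 100.0 and 121.6 RPKM in the controls (111 ± 15.3, SD, n = 2), 51.6 in siU2af65 and 139 in siPtbp1, and the knockdown library again lay below all 5 others. Its fall was 1.20 (SE 0.25, edgeR adjusted p = 0.0295). Os9 stood at 26.0 and 31.5 RPKM in the controls (28.7 ± 3.87, SD, n = 2), 16.4 in siU2af65 and 27.2 in siPtbp1, and fell by 0.91 (SE 0.22, edgeR adjusted p = 0.0458). When shGFP joined the controls or replaced one of them, no member and 0 of all genes were called by edgeR, and the adjusted p of these 3 ran from 0.443 to 1.000. Their log2 differences there were -1.12 to -0.88 for Sdf2l1, -0.99 to -0.83 for Pdia4 and -1.12 to -1.03 for Os9. Over all alternatives the lowest adjusted p was 1.69e-06 for Sdf2l1, 1.01e-05 for Pdia4 and 0.0110 for Os9.

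Chaperones and cochaperones other than Sdf2l1 did not pass the test. Of the 12, 10 had negative differences, with a median of -0.53. Hsp90b1 stood at 601 and 582 RPKM in controls a and b and 322 in siU2af65, a log2 difference of -0.98 (SE 0.37). Creld2, a cysteine-rich ER protein that responds to ER stress, stood at 38.9 and 60.1 RPKM in the controls and 30.1 in siU2af65, a difference of -0.81 (SE 0.26). Calr stood at 442 and 536 RPKM against 316, a difference of -0.73. These 3 and Hspa5, Canx, Manf and Dnajc3 had siU2af65 below both controls in RPKM as well as on scaled counts.

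Hspa5 itself stood at 532 and 658 RPKM in controls a and b and 424 in siU2af65, a difference of -0.58 whose SE was 0.37. Manf, a secreted factor that binds BiP, had -0.56, Canx -0.51, and Dnajc3 (p58IPK), a cochaperone that also inhibits PERK, had -0.33. Dnajb11 (ERdj3), a BiP cochaperone, stood at -0.23 and Hyou1 (GRP170), the nucleotide exchange factor of BiP, at -0.07. The exceptions were Hspa13, a microsomal Hsp70 relative, at 0.21, and Dnajb9. Dnajb9 (ERdj4), a BiP cochaperone known as a target of spliced XBP1, stood at 18.1 and 22.4 RPKM in the controls and 35.0 in siU2af65, the highest of the 6 files. Its difference was 0.69 (SE 0.22, edgeR adjusted p = 0.103).

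All 4 disulfide isomerases lay below both controls in siU2af65, with a median difference of -0.79. Beside Pdia4, these enzymes had differences of -0.91 for Pdia6 (SE 0.28, edgeR adjusted p = 0.0929), -0.66 for Pdia3 (ERp57), which works with calnexin and calreticulin, and -0.41 for P4hb. P4hb was also the isomerase whose controls were farthest apart, at 342 and 251 RPKM in a and b against 241 in siU2af65.

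The degradation genes were mixed, with a median of -0.20 over 8 tested genes, or -0.11 against control a and -0.39 against control b alone. Beside Os9, Erlec1, a lectin of the same step, stood at 17.2 and 17.0 RPKM in the controls and 10.9 in siU2af65, a difference of -0.75 (SE 0.24, edgeR adjusted p = 0.106). Derl1, a membrane protein of the retrotranslocation complex, stood at 46.8 and 58.6 RPKM against 35.0, a difference of -0.69 (SE 0.22). The opposite sign was seen for Herpud1, an ER stress-induced adaptor of the ubiquitin ligase complex. Its levels were 76.0 and 81.2 RPKM in the controls and 124 in siU2af65, the highest file, and its difference was 0.56 (SE 0.21, edgeR adjusted p = 0.151). The ubiquitin ligase Syvn1 (HRD1), its partner Sel1l, the mannosidase-like Edem1 and the derlin Derl2 had differences from -0.22 to 0.02, within 1 SE of 0.

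Among the sensors, Atf6 stood at 14.6 and 22.7 RPKM in controls a and b and 32.7 in siU2af65, above every other file, with a difference of 0.72 (SE 0.25, edgeR adjusted p = 0.122). Ern1 had 0.26 and Xbp1 0.09, and Eif2ak3 was the only negative one at -0.47. Its levels were 18.9 and 21.0 RPKM in the controls and 15.4 in siU2af65. In the translocon, through which new proteins enter the ER, the differences were -0.68 for Ssr1, a subunit of the TRAP complex, -0.55 for the channel subunit Sec61a1 and -0.20 for Sec61b. The RPKM of Sec61b rests on an effective length of only 76 bases (329 to 603 reads per file), so its level is uncertain.

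**Figure D3:**
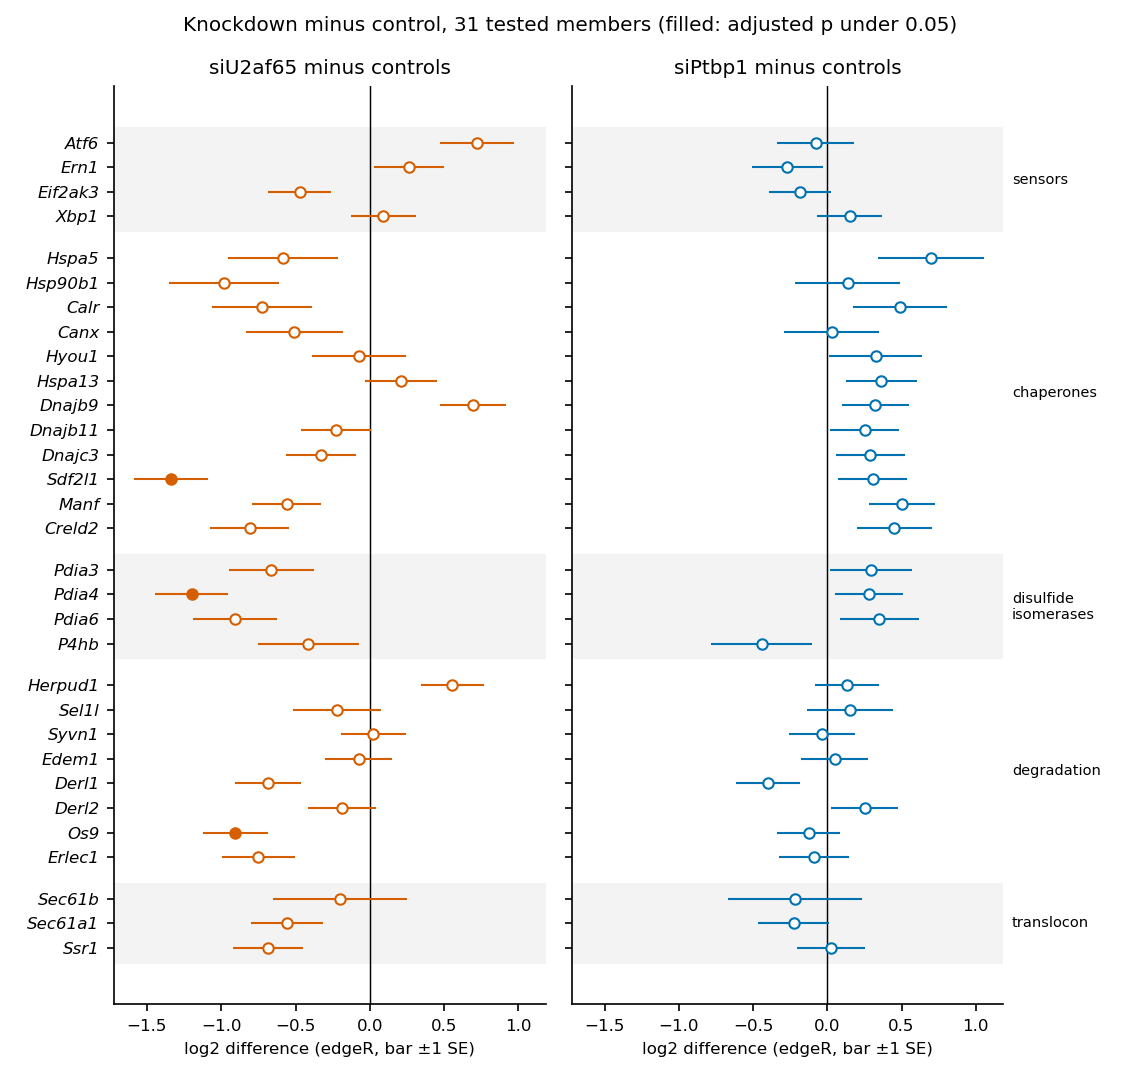
Fitted log2 difference of each tested member from the 2 control siRNA libraries (bar, 1 SE) in siU2af65 (left) and siPtbp1 (right), by role, filled where the adjusted p is under 0.05. Filled points are Sdf2l1, Pdia4 and Os9 on the left, and there are none on the right, where all 12 chaperones lie above 0.

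After Ptbp1 knockdown no member was called. Among all 11237 genes 3 were called (0.0267%). DESeq2 and limma also called 0 of 31 members. At an unadjusted p under 0.05 edgeR placed 1 member higher and 0 lower, where it placed 173 of the 11237 genes higher and 308 lower. At that level DESeq2 placed 1 member higher and 0 lower, and limma 5 higher and 0 lower. The median difference was 0.15, beside 0.01 for all tested genes. On scaled counts 18 members lay above both controls, where 34.8% of all genes did, and 8 lay below both, where 28.9% did.

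The chaperones and cochaperones were the role with a uniform sign: all 12 lay above both controls, with a median difference of 0.32 and a range of 0.03 to 0.70. Hspa5 stood at 532 and 658 RPKM in controls a and b and 996 in siPtbp1, the highest of the 6 files. Its difference was 0.70 (SE 0.36, edgeR adjusted p = 0.999). Manf stood at 37.4 and 50.9 RPKM against 64.5, a difference of 0.50 (SE 0.22). Calr had 0.49 and Creld2 0.45, each with the siPtbp1 library as its highest file. The smallest were 0.14 for Hsp90b1 and 0.03 for Canx, both less than their SE.

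The disulfide isomerases Pdia6, Pdia3 and Pdia4 had differences of 0.35, 0.29 and 0.28 in siPtbp1, while P4hb had -0.44 (SE 0.34). P4hb stood at 228 RPKM in siPtbp1, below both controls. The degradation genes split evenly in sign, from -0.40 for Derl1 to 0.25 for Derl2. The sensors ran from -0.27 for Ern1 to 0.15 for Xbp1, and the translocon genes from -0.23 for Sec61a1 to 0.02 for Ssr1.

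The controls themselves differed in these genes. Control b lay above control a in 23 of 31 members, with a median of 0.19, where 54.8% of all tested genes did so and the median was 0.04. Sel1l had the widest gap, 0.73 on the log2 scale, at 19.8 and 35.7 RPKM in a and b, and Hyou1 had 0.63. The members' median in siPtbp1 was therefore 0.29 against control a and 0.09 against control b, the control with the same letter. In the chaperones it was 0.53 against a and 0.19 against b. In siU2af65 the choice of control moved the members' median little, to -0.46 against control a, which has its letter, and -0.49 against b. siU2af65 and siPtbp1 were compared with the same 2 control libraries, so their differences are not independent of each other.

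The nSR100 hairpin was compared with the GFP hairpin without a test, since each had 1 file. None of the 31 members at 1 RPKM or more differed by 1.5-fold on log2(RPKM + 1), where 3.10% of 11877 genes were higher and 3.69% lower by that much. The differences were small and mostly of one sign: 24 of 31 were positive with a median of 0.22, beside 55.7% of genes and a median of 0.03. In the same comparison the summed neuroblastoma markers stood at 1123 RPKM in shGFP and 772 in shnSR100. Of the 12 at 1 RPKM or more, 9 were negative, with a median of -0.46, and 3 were lower by 1.5-fold; their part in the members' differences was not tested. At 1.25-fold, a threshold chosen after the values were seen, 8 members were higher and 0 lower, where 11.3% of genes were higher and 11.2% lower. These 8 were Manf, Dnajb9, Sdf2l1, Creld2, Dnajb11, Calr, Ern1 and Pdia4.

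Manf stood at 37.8 RPKM in shGFP and 53.4 in shnSR100, a read ratio of 1.41 (95% exact binomial interval 1.36 to 1.46, which covers counting error only). The ratio was 1.40 for Dnajb9 (16.4 and 23.0 RPKM), 1.39 for Sdf2l1 (40.0 and 55.7) and 1.38 for Creld2 (36.3 and 50.2). Chaperones had positive differences in 11 of 12 cases, and all 4 disulfide isomerases and 3 translocon genes were positive, from 0.14 to 0.33. Hspa5 was the chaperone that did not follow, at 353 RPKM in shGFP and 344 in shnSR100, a ratio of 0.973 (0.962 to 0.984). On the lower side were Xbp1, at 53.8 and 44.5 RPKM with a ratio of 0.826 (0.799 to 0.855), and Sel1l at 0.875. Os9 and Derl1 had ratios of 0.996 and 1.01, whose intervals include 1.

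**Figure D4:**
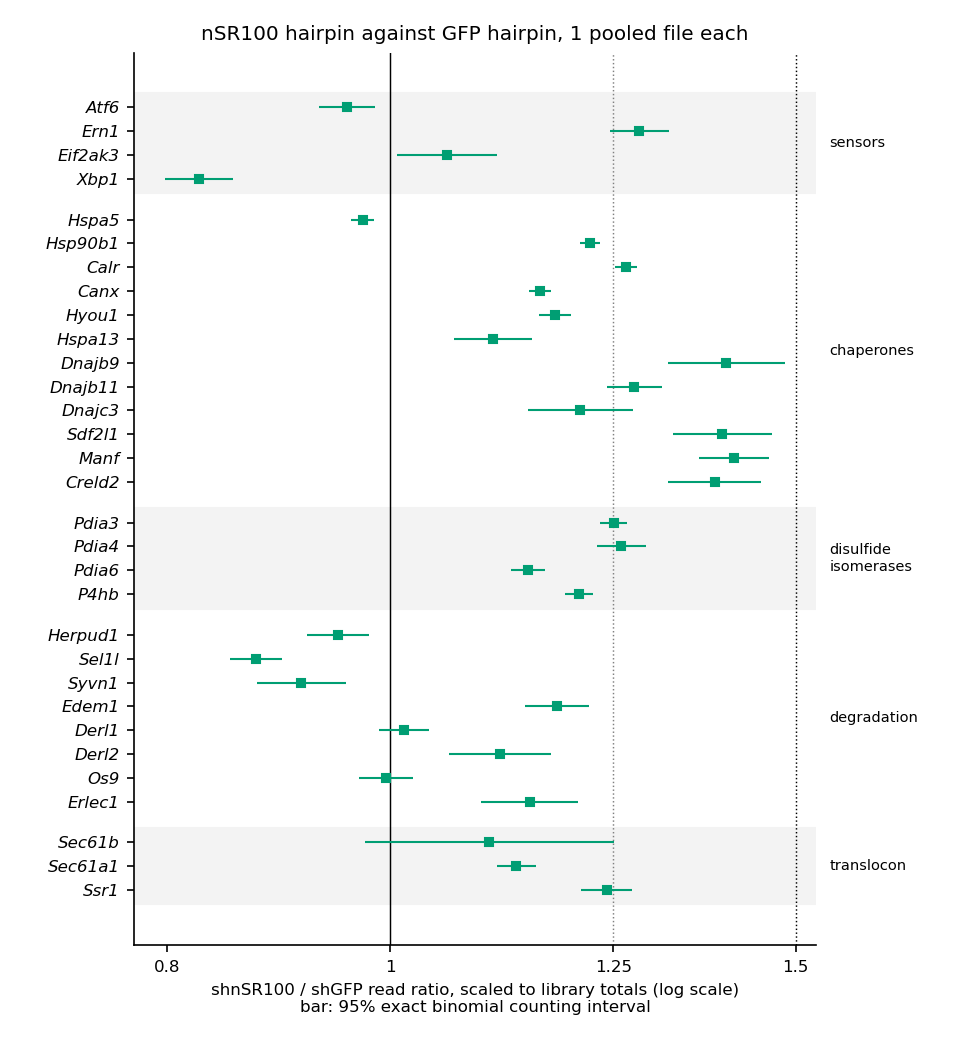
Read ratio of shnSR100 to shGFP, scaled to library totals (log axis), for the 31 members at 1 RPKM or more, with the 95% exact binomial counting interval and dotted lines at 1.25 and 1.5. No point reaches 1.5; Manf, Dnajb9, Sdf2l1 and Creld2 lie farthest right and Xbp1 farthest left.

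Members with and without the ERSE were set side by side. In siU2af65 the 8 tested members with an ERSE had a median difference of -0.66, 7 of 8 negative, and the 16 members with a window but no ERSE had -0.22, 12 of 16 negative. All 3 members called lower were outside the ERSE group, which takes only exact matches within the window. Inside it, Hsp90b1 at -0.98 (SE 0.37) and Pdia6 at -0.91 (SE 0.28) did not pass, while Os9 passed at -0.91 (SE 0.22). Like most members with a window, Sdf2l1, Pdia4 and Os9 each held CCAAT and CCACG, though not as an exact ERSE. In siPtbp1 the medians were 0.32 with 7 of 8 positive, and 0.14 with 11 of 16 positive, and in shnSR100 they were 0.23 and 0.25. Against 1 control at a time the siPtbp1 medians were 0.46 (a) and 0.22 (b) with an ERSE and 0.25 and 0.05 without. Syvn1, whose ERSE is nearest the start, had 0.02 in siU2af65 and -0.03 in siPtbp1. Both ERSE-II genes were on opposite sides in siU2af65, Herpud1 at 0.56 and Dnajb11 at -0.23. The 28 genes outside the members that hold an ERSE had 10 tested genes, with medians of -0.23 in siU2af65 and -0.06 in siPtbp1 and no call in either. A motif match describes the sequence and is not evidence of binding.

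The rest of the pathway was read from lists of other genes. In siU2af65 the PERK and ATF4 branch had 5 of 28 tested genes that rose and 0 that fell. Of all tested genes, 1.82% rose and 3.42% fell. The branch was mixed in sign, with 18 genes positive and 10 negative, down to -1.09. Its median was 0.46, beside -0.47 for the members. Against control a alone that median was 0.47 and against control b alone 0.265. Ppp1r15a (GADD34), which directs dephosphorylation of eIF2α, stood at 31.1 and 40.3 RPKM in the controls and 141 in siU2af65, and rose by 1.88 (SE 0.21, edgeR adjusted p = 0.00519). Trib3, a pseudokinase induced by ATF4, stood at 59.9 and 93.9 RPKM against 253 and rose by 1.63. Stc2, Nupr1 and Chac1, also known ATF4 targets, rose by 1.41, 1.23 and 1.12 (edgeR adjusted p = 0.0335, 0.0367 and 0.0479). In siPtbp1 0 of the 28 were called, with 0 genes higher and 1 lower at an unadjusted p under 0.05, and the median was -0.01 (0.13 against control a and -0.11 against b).

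Other ER folding and glycoprotein quality control genes had a median of -0.22 in siU2af65, with 1 of 32 called higher and 2 lower. Over all tested genes, 1.82% were called higher and 3.42% lower, and the small counts in these lists are not read as particular to them. Ppib, the cyclophilin of the ER, stood at 244 and 239 RPKM in the controls and 60.1 in siU2af65, and fell by 2.11 (SE 0.23, edgeR adjusted p = 0.00519). Nucb2, a calcium-binding protein, fell by 1.07. Mogs, the glucosidase that trims the first glucose from new glycans, stood at 6.81 and 13.0 RPKM against 44.4 and rose by 2.08. Among other translocation and oligosaccharyltransferase genes 25 of 31 were negative and 1 fell, Sec11c, a signal peptidase subunit, by 1.09. No gene was called among 20 other degradation genes, where the widest differences were 0.81 for Ngly1 and -0.68 for Rnf5, or among 18 membrane-bound ER stress regulators, where they were 0.93 for Bak1 and 0.79 for Nfyc.

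Chaperones outside the ER served as a comparison. Of 27 cytosolic and mitochondrial chaperones in siU2af65, 1 rose, Dnaja3 by 0.92, and 1 fell, Trap1 by 1.24, both mitochondrial. The shares over all tested genes were 1.82% and 3.42%. The median of these chaperones was -0.11 (-0.12 against control a and -0.06 against b). In siPtbp1 none of these lists had a called gene, and their medians ran from -0.09 to 0.12, or from -0.11 to 0.21 against control a and from -0.11 to 0.11 against control b. In shnSR100 the median of the PERK and ATF4 branch was -0.14, with 9 of 28 positive. Positive differences were seen in 25 of 31 other translocation genes (median 0.13) and 24 of 32 other folding genes (0.08), beside 24 of 31 members (0.22). The other degradation genes had 13 of 20 positive (0.09), the other ER stress regulators 12 of 18 (0.06) and the non-ER chaperones 19 of 27 (0.08).

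**Figure D5:**
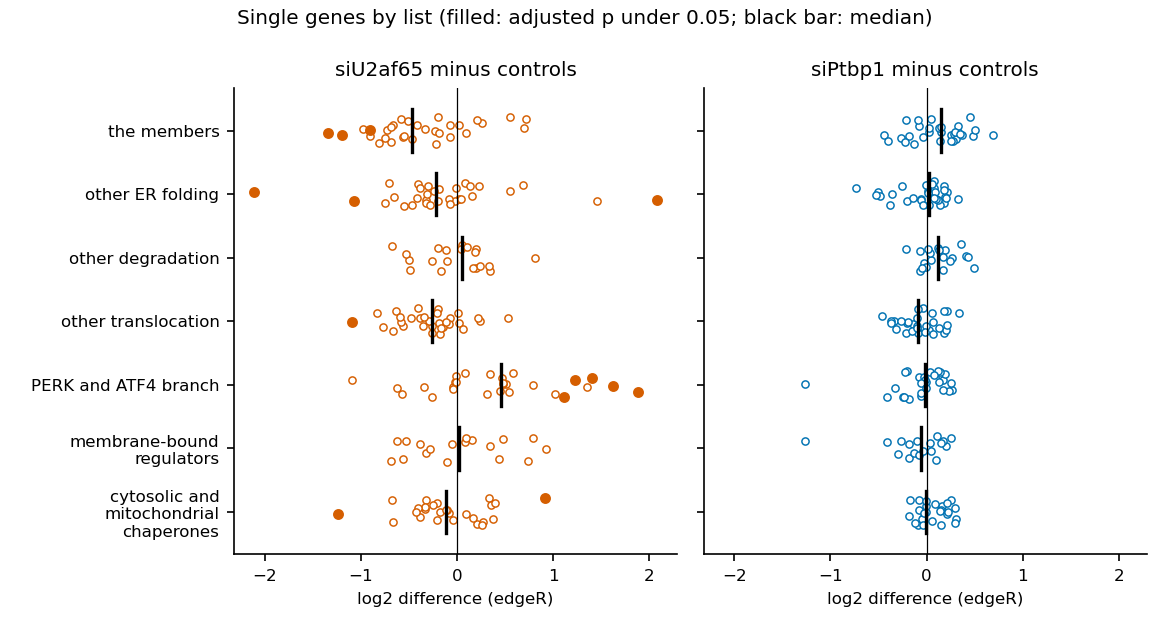
Fitted log2 difference of each tested gene from the 2 control siRNA libraries in siU2af65 (left) and siPtbp1 (right), by list, with the list median as a black bar and filled points where the adjusted p is under 0.05. On the left the members' median lies at -0.47 and that of the PERK and ATF4 branch at 0.46; on the right no point is filled.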

How the data were processed

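Each of the 6 N2A files holds, per Ensembl gene and with no header line, a read count and an RPKM value, both deposited by the authors as processed values. The counts are raw reads per gene from the authors' counting, and the RPKM are the authors' length- and depth-scaled values; 1114 genes had none. Bowtie, bedtools 2.17.0, hg19 and mm9 are named in the submitters' processing notes without a role, and neither the counting rule nor strand use is given in these sources. Genes that overlap others in RefSeq (such as Hspa5, Pdia3, Pdia6, Syvn1, Atf6 and Erlec1) are uncertain for that reason. Of the members called in siU2af65, Os9 overlaps a long noncoding RNA gene and Pdia4 a microRNA gene. Of 22667 identifiers, 20759 had a symbol. The other lists, markers included, hold 217 symbols in all, 7 of which were not matched.

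The members and lists were chosen with earlier results of these data known. The text names all members and, of each other list, up to 6 called genes with the widest difference or else the 2 widest. edgeR 4.0.16 (R 4.3.3; limma 3.58.1 and DESeq2 1.42.0 as alternatives) fitted the 4 siRNA libraries together under TMM scaling. The 11237 genes whose mean reached 1 RPKM entered it, by the quasi-likelihood test with Benjamini-Hochberg adjustment over all of them. The control pair gives the only residual degree of freedom (1), moderated with 8.65 prior degrees of freedom. The SE is the log2 difference divided by the square root of F. Counts were simulated for siU2af65 over 11237 genes, with the same dispersion for every gene. On these the test called 15 of 103 genes changed by 1 on the log2 scale. It called 93 of 97 changed by 2 and 6 of 11037 unchanged ones. The SE of the members differed between genes, so these rates need not hold for them. Hairpin files, with 1 file a group, were described on log2(RPKM + 1) for genes at 1 RPKM or more in either. Promoter windows are from RefSeq.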

Additional observations from a re-analysis of the deposited data

How the results depend on the processing

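The number of members called in siU2af65 was 3 with edgeR under TMM, size factors or robust settings. It was 7 with library totals (5 lower, 2 higher), 6 with DESeq2, 9 with limma at either pseudocount (6 lower, 3 higher), 5 with no filter and 1 (Sdf2l1) with a mean of at least 5 RPKM. It was 0 wherever shGFP joined or replaced a control, and there 0 of all genes were called, while the differences were -1.12 to -0.88 for Sdf2l1, -0.99 to -0.83 for Pdia4 and -1.12 to -1.03 for Os9. Over all genes, the main fit called 589 of 11237, size factors 781 and robust settings 584. Library totals called 1162, DESeq2 1045, and limma 1285 or 1261 by pseudocount. With no filter 1649 of 17622 were called, and 257 of 8923 at a mean of 5 RPKM. Library totals shift the median of all genes to 0.09 and that of the members to -0.37. In siPtbp1 the count of members called was 0 under every alternative run. In shnSR100, 1 member (Eif2ak3, lower) passed 1.5-fold against the mean of shGFP and both siRNA controls, where 1876 of 11877 genes passed. At 1.25-fold against shGFP, chosen after seeing the data, 8 members and 2676 of 11877 genes passed. Leaving out 1 control leaves no residual degree of freedom, so those values carry no test: the members' median ran from -0.49 to -0.46 in siU2af65 and from 0.09 to 0.29 in siPtbp1.

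The signs of some small differences turned. With library totals they were 0.015 for Hyou1 and 0.018 for Edem1 in siU2af65 and 0.022 for Syvn1 in siPtbp1. Without one control in turn, the siU2af65 values ran from -0.031 to 0.23 for Xbp1, -0.35 to 0.28 for Hyou1, -0.54 to 0.19 for Sel1l, -0.088 to 0.15 for Syvn1, -0.22 to 0.091 for Edem1 and -0.39 to 0.0091 for Sec61b. Those in siPtbp1 ran from -0.32 to 0.21 for Atf6, -0.17 to 0.56 for Sel1l, -0.15 to 0.086 for Syvn1, -0.10 to 0.21 for Edem1 and -0.094 to 0.15 for Ssr1. The cause was not tested. No paired analysis was possible because each knockdown has 1 library and shares a letter with only 1 control, and each hairpin group is 1 pooled file.

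The calls rest on the spread of 1 control pair (1 residual degree of freedom), moderated with 8.65 prior degrees of freedom drawn from all genes. A difference of -0.98 (Hsp90b1, SE 0.37) did not pass, though its controls were close, at 601 and 582 RPKM.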

Other observations

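The GFP hairpin file and the control siRNA libraries are both controls, but they differ in construct, selection and culture, which cannot be told apart here. Hspa5 in shGFP stood at 0.594 of the mean of the control siRNA libraries, Eif2ak3 at 0.511, Sdf2l1 at 0.623, Hsp90b1 at 0.630 and Pdia4 at 0.655. In the other direction Os9 stood at 1.40, Xbp1 at 1.39, Hspa13 at 1.34 and Sec61b at 1.41 of that mean. Both hairpin files lay below both siRNA controls for 8 of 31 members (Eif2ak3, Hspa5, Hsp90b1, Pdia4, P4hb, Herpud1, Syvn1 and Ssr1) and above both for 7 (Xbp1, Hspa13, Derl1, Derl2, Os9, Erlec1 and Sec61b). The same tally over all genes was not made, so these counts are not read as particular to the members. The genes given with ratios were chosen after their values were seen, and the ratios have no test.

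In siU2af65, 5 of 31 members were at their highest of all 6 files (Atf6, Ern1, Dnajb9, Herpud1 and Syvn1) and 14 at their lowest. No such count was made over all genes. Calr4, a relative of Calr whose window also holds an ERSE, had -1.58 in siU2af65 (edgeR adjusted p = 0.113).

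Pearson r with Hspa5 was taken on log2(RPKM + 1) over the 6 files, as a description over files that share 2 controls. The members that followed Hspa5 most closely were Hsp90b1 (0.790), Eif2ak3 (0.788), Dnajc3 (0.774) and Pdia6 (0.755). Sec61b (-0.786) and Derl3 (-0.748) were the most opposed. Both are uncertain, since Sec61b rests on an effective length of 76 bases and Derl3 on 9 to 34 reads per file.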
